A study of Homo sapiens with 18 samples.

Results

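The genes described here are 35 members of the DNA damage response and of the main DNA repair pathways, taken by name from a bulk RNA-seq count table of 58037 gene identifiers. They were listed for their known roles, with earlier results of these data known. All 35 were found once in the table and all 35 passed the filter on low counts in every comparison. Their raw counts lay between 187 and 48928 per library. The members were grouped by role into 5 damage kinases and checkpoint factors, 3 subunits of the MRN complex, 8 homologous recombination genes, 5 end-joining genes, 3 Fanconi anemia genes, 6 genes of base excision and single-strand break repair, 2 mismatch repair genes and 3 nucleotide excision repair genes. Their coding sequences, in the Ensembl canonical transcripts of GENCODE release 44 mapped to GRCh37, ran from 0.84 kb for XRCC2 to 12.38 kb for PRKDC. The 14 members of at least 3000 coding bases are called long here, and the other 21 short.

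The 18 libraries came from 3 human acute myeloid leukemia cell lines after 16 h of culture. MOLM13 carries the MLL-AF9 fusion, MV4-11 carries a rearranged MLL gene, and OCI-AML3 carries mutant NPM1. MOLM13 cells in RPMI medium received SNDX-50469 (SNDX, labelled VTP50469, an inhibitor of Menin) at 500 nM, OTX015 (OTX, a BET protein inhibitor) at 500 nM, both together at those doses (SNDX+OTX), or neither (control), with 2 libraries each. MV4-11 cells in IMDM medium received SNDX at 1000 nM or were controls, with 2 libraries each, and OCI-AML3 cells in RPMI received SNDX at 500 nM or were controls, with 3 libraries each. The study calls the MOLM13 and OCI-AML3 libraries biologic replicates. For MV4-11 nothing says so, and p-values there measure the spread between libraries that may be technical. The sample descriptions number the MV4-11 libraries of each group 2 and 3, and the titles, followed here, number them 1 and 2. Whether further libraries of that line were made is not stated.

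Cells answer broken or stalled DNA through a pair of large kinases. ATM is switched on at double-strand breaks, where the MRN complex (MRE11, RAD50 and NBN) recruits it, and ATR is switched on at single-stranded DNA of stalled replication forks. They pass the signal to the checkpoint kinases CHEK2 and CHEK1. Breaks are then joined end to end by the Ku proteins with the DNA-PK catalytic subunit and a ligase, or copied from the sister chromatid by homologous recombination, in which the BRCA proteins act. Smaller lesions go to base excision, mismatch or nucleotide excision repair. In leukemia cells these pathways respond to replication stress and to genotoxic drugs. Menin and BET inhibitors act on transcription, and the values below are mRNA levels, not protein amounts or repair activity.

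Promoters of 4 members are printed as examples. ATM and TP53BP1 had higher mRNA levels in every treated MOLM13 group, as did BRCA2, whose promoter is not printed. ERCC2 and LIG3 had the most lowered levels with SNDX+OTX. Each sequence is the 250 bases just before the RefSeq transcription start on GRCh38.p14, read 5′ to 3′ on the strand of the gene. Capitals mark matches to any of 7 short motifs.
ATM: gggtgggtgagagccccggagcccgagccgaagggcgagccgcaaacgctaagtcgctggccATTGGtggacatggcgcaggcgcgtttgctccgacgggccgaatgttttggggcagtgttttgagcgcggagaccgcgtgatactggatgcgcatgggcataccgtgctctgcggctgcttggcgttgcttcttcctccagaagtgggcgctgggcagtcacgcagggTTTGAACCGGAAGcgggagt
TP53BP1: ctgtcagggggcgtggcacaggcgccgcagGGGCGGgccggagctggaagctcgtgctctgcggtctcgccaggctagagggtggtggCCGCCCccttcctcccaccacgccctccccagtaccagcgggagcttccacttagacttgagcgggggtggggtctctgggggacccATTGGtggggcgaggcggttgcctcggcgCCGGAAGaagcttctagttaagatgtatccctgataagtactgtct
ERCC2: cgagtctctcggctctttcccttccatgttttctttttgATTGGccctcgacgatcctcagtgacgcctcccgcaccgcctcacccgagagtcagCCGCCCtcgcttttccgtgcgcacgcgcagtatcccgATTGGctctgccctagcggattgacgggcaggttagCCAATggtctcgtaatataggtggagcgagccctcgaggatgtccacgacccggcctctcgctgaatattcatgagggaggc
LIG3: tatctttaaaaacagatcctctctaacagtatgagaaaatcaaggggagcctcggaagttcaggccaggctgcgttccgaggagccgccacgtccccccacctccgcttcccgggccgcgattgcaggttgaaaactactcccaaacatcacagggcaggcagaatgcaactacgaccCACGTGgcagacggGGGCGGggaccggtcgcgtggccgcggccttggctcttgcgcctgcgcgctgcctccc
The windows are chr11:108222817-108223066 on the plus strand for ATM, chr15:43510641-43510890 on the minus strand for TP53BP1, chr19:45370574-45370823 on the minus strand for ERCC2, and chr17:34980262-34980511 on the plus strand for LIG3. They lie upstream of the gene, in no exon or intron, and no RefSeq gene of the same build overlaps them.

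The 7 motifs were searched on both strands in the same 250-base window of 35116 RefSeq promoters and of the 31 members that had one. Each member gave only the window at its most upstream start, while the 35116 were all promoters, taken with no such choice. The shares below therefore come from sets that were chosen differently. The CCAAT box (CCAAT) was in 15 member windows (48.4%), against 32.0% of all windows. The GC box (GGGCGG) was in 21 member windows (67.7%), against 42.6% of all. The ETS motif (CCGGAAG) was in 11 (35.5%), against 8.52% of all, and the NRF1 motif (GCATGCGC) was in 3 (9.68%), against 2.63%. The E box (CACGTG) was in 2 (6.45%), against 6.34%, the E2F motif (TTTCCCGC, TTTCGCGC, TTTGGCGC or TTTGCCGC) was in 2, against 2.79%, and the CHR motif (TTTGAA) was in 2, against 13.3%. In the printed ATM window the CHR and ETS matches lay side by side, from 20 to 15 and from 14 to 8 bases before the start. ERCC2 held 3 CCAAT boxes, and LIG3 held the E box from 72 to 67 bases before the start. These matches describe letters, and binding was not measured.

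Library totals were 19320216 to 23684811 counts in MOLM13, 20730486 to 30090830 in MV4-11 and 49881047 to 59711884 in OCI-AML3, so that 3 counts amounted to 0.0502 to 0.155 CPM (counts scaled to the size of the library). Replicates within MOLM13 were close, with a biological coefficient of variation of 3.06%, and likewise in OCI-AML3 (3.15%). In MV4-11 it was 13.2%, and the 2 control libraries of that line also held 10.3% and 5.60% mitochondrial counts. Of 8 myeloid markers, 7 reached 1 CPM in each line, with sums of 789 to 1647 CPM in MOLM13, 2661 to 3275 in MV4-11 and 683 to 895 in OCI-AML3. Sums over 6 lymphoid markers stayed at or below 9.86 CPM, and those over 6 epithelial and stromal markers at or below 14.95 CPM. Sums over 5 erythroid markers were 18 to 44.5 CPM, and 1 of the 5 reached 1 CPM in each line.

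Each treated group was set against its own line's control with edgeR's quasi-likelihood test on the raw counts. A gene was called where the Benjamini-Hochberg adjusted p over all genes tested was below 0.05 and the change was at least 0.32 on the log2 scale, the fold limit of the study. Levels are given as CPM scaled by TMM factors within a line, and changes as log2 fold changes with their standard error (SE). The plot of log2 fold changes by role gives all 35 members in the 5 comparisons.

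**Figure D1:**
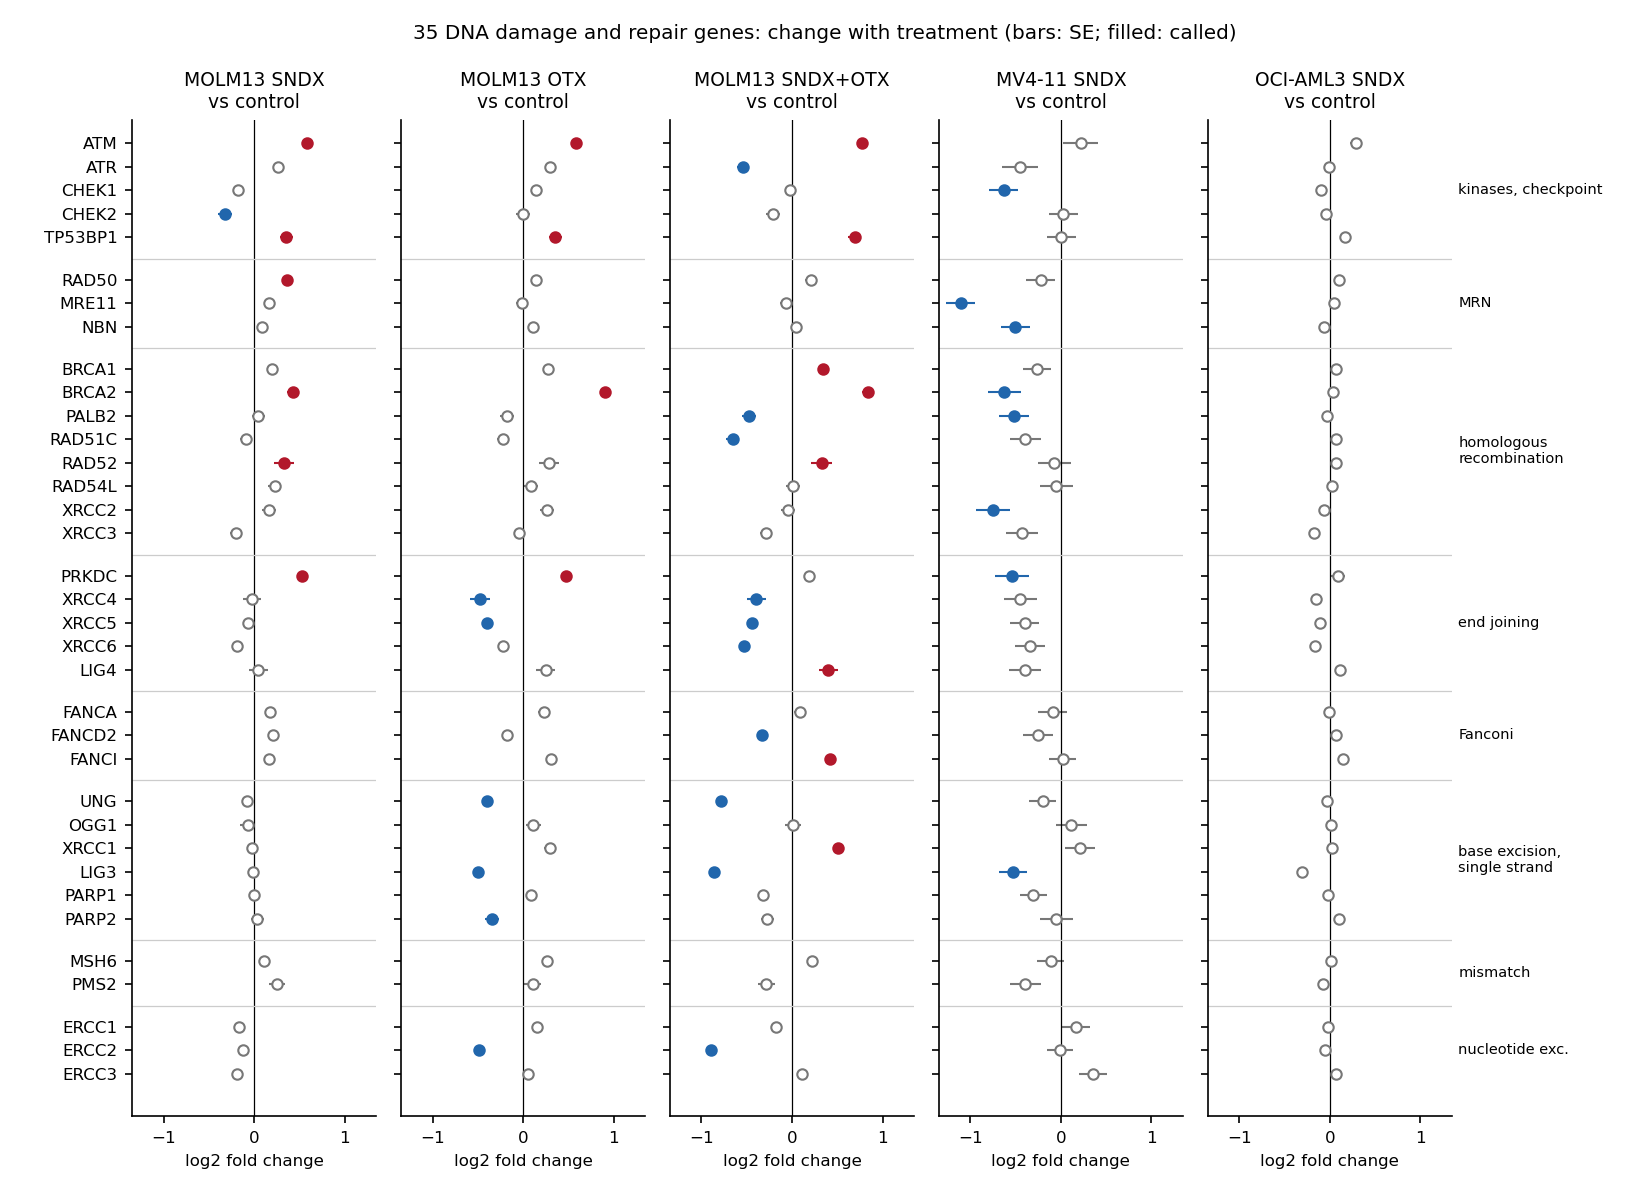
Log2 fold change (horizontal axis) of each of the 35 members (rows, by role) in 5 comparisons of a treated group with its own control; bars are the SE and filled points passed the test, red when higher and blue when lower. The MOLM13 panels hold 7, 10 and 18 filled points, the MV4-11 panel holds 8, all lower, and the OCI-AML3 panel holds none.

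In MOLM13 cells treated with SNDX, ATM and several other long genes of break signalling and repair had higher mRNA levels, and the Fanconi, base excision, mismatch and nucleotide excision groups had no call. Of the 35 members 6 rose and 1 fell. Over all 14360 genes tested 8.06% were called higher and 5.24% lower, and the members' shares were 17.1% and 2.86%. The members' median log2 fold change was 0.05, beside 0.01 over all genes. The risen members were ATM, PRKDC, BRCA2, RAD50, TP53BP1 and RAD52, and the fallen one was CHEK2. Without scaling factors or with upper-quartile factors the counts were 6 and 0, and with limma-voom after quantile normalization they were 5 and 0.

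ATM, the kinase that starts the double-strand break response, measured 91.0 and 94.3 CPM in SNDX-treated MOLM13 cells, against 62.1 and 61.5 CPM in control cells. Both treated libraries lay above both controls. Over all genes tested 33.4% had both SNDX libraries above both controls, and 33.0% had both below. The log2 fold change was 0.58 ± 0.05 (edgeR adjusted p = 2.3e-14). PRKDC, the DNA-PK catalytic subunit and the most abundant member by counts in MOLM13, had 1981 and 1893 CPM with SNDX and 1290 and 1394 CPM in control cells. Again the groups did not overlap, and the change was 0.53 ± 0.04 (edgeR adjusted p = 4.9e-18).

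BRCA2, a mediator of homologous recombination, had 50.8 and 51.7 CPM with SNDX, against 37.3 and 38.9 CPM in control cells, a change of 0.43 ± 0.06. RAD50, the structural subunit of the MRN complex, had 75.9 and 74.1 CPM, against 57.9 and 59.0 CPM in control cells, a change of 0.36 ± 0.06. TP53BP1, a chromatin adaptor that favours end joining over resection, had 40.2 and 44.7 CPM, against 30.5 and 35.8 CPM in control cells. All treated libraries of these 3 genes lay above the controls, although the lower TP53BP1 library and the higher control were close. The TP53BP1 call (0.35 ± 0.07) was lost when SNDX replicate 2 or control replicate 1 was left out.

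RAD52, a strand-annealing protein, was low, with 12.1 and 12.9 CPM with SNDX and 9.0 and 10.8 CPM in control cells. Its change was 0.33 ± 0.11 (edgeR adjusted p = 0.017), just inside the fold limit, and the call was lost with DESeq2, with limma-voom and when control replicate 1 or SNDX replicate 2 was left out. CHEK2, the checkpoint kinase downstream of ATM, had 24.0 and 26.6 CPM with SNDX, against 31.2 and 32.1 CPM in control cells, and its change of −0.32 ± 0.08 was also at the fold limit. Its call was lost without scaling factors, with upper-quartile factors, with limma-voom and when SNDX replicate 1 or control replicate 2 was left out. ATR at 0.26 ± 0.06 and CHEK1 at −0.18 ± 0.06 had adjusted p-values below 0.05 in the edgeR test but stayed under the fold limit. With no fold limit 14 members were higher and 7 lower, or 17 and 4 without scaling factors and 9 and 8 with DESeq2. Over all 14360 genes tested 2165 were higher and 2526 lower in the edgeR test with no fold limit.

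In MOLM13 cells treated with OTX, ATM, BRCA2, PRKDC and TP53BP1 were again higher, and several genes of end joining and base excision were lower. Of the 35 members 4 rose and 6 fell, 11.4% and 17.1%, and over all genes 23.5% were called higher and 24.7% lower. Both shares of the members were below those of all genes. The median was 0.11 for the members and 0.01 for all genes. Without scaling factors the counts were 8 and 5, and with limma-voom after quantile normalization 6 and 5.

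BRCA2 showed the greatest rise of a member with OTX, with 74.3 and 68.9 CPM, against 37.3 and 38.9 CPM in control cells. The log2 fold change was 0.91 ± 0.06 (edgeR adjusted p = 6.2e-21). ATM had 94.1 and 91.8 CPM with OTX, against 62.1 and 61.5 CPM in control cells, a change of 0.59 ± 0.05. PRKDC (0.47 ± 0.04) and TP53BP1 (0.36 ± 0.07) also rose, and in all 4 genes the OTX libraries lay above the controls. Over all genes tested 40.4% had both OTX libraries above both controls, and 40.1% had both below. The TP53BP1 call with OTX was lost when control replicate 1 was left out.

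The members that fell with OTX belonged to 3 roles. In base excision and single-strand break repair, LIG3, the ligase that seals nicks with XRCC1, had 68.1 and 71.1 CPM, against 98.6 and 97.6 CPM in control cells. UNG, the glycosylase that removes uracil from DNA, had 75.0 and 75.7 CPM, against 102 and 96.9 CPM in control cells. In both genes the OTX libraries lay below both controls, with changes of −0.49 ± 0.05 for LIG3 and −0.40 ± 0.05 for UNG. PARP2, a poly(ADP-ribose) polymerase that answers DNA breaks, fell with −0.34 ± 0.07, close to the fold limit, and lost its call without control replicate 1 or OTX replicate 1.

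In end joining, XRCC5, the larger subunit of the Ku protein that caps DNA ends, had 508 and 497 CPM with OTX, against 657 and 664 CPM in control cells. XRCC4, the scaffold of the end-joining ligase, had 11.5 and 9.72 CPM, against 14.9 and 14.6 CPM. Both genes fell without overlap of the libraries, XRCC5 by 0.39 and XRCC4 by 0.47 on the log2 scale. In nucleotide excision repair, ERCC2, a helicase of the transcription factor TFIIH, had 106 and 109 CPM, against 151 and 152 CPM in control cells. Its change was −0.49 ± 0.05 (edgeR adjusted p = 5.6e-14). With no fold limit 18 members were higher and 10 lower, beside 4593 and 4669 of the 14360 genes tested.

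**Figure D2:**
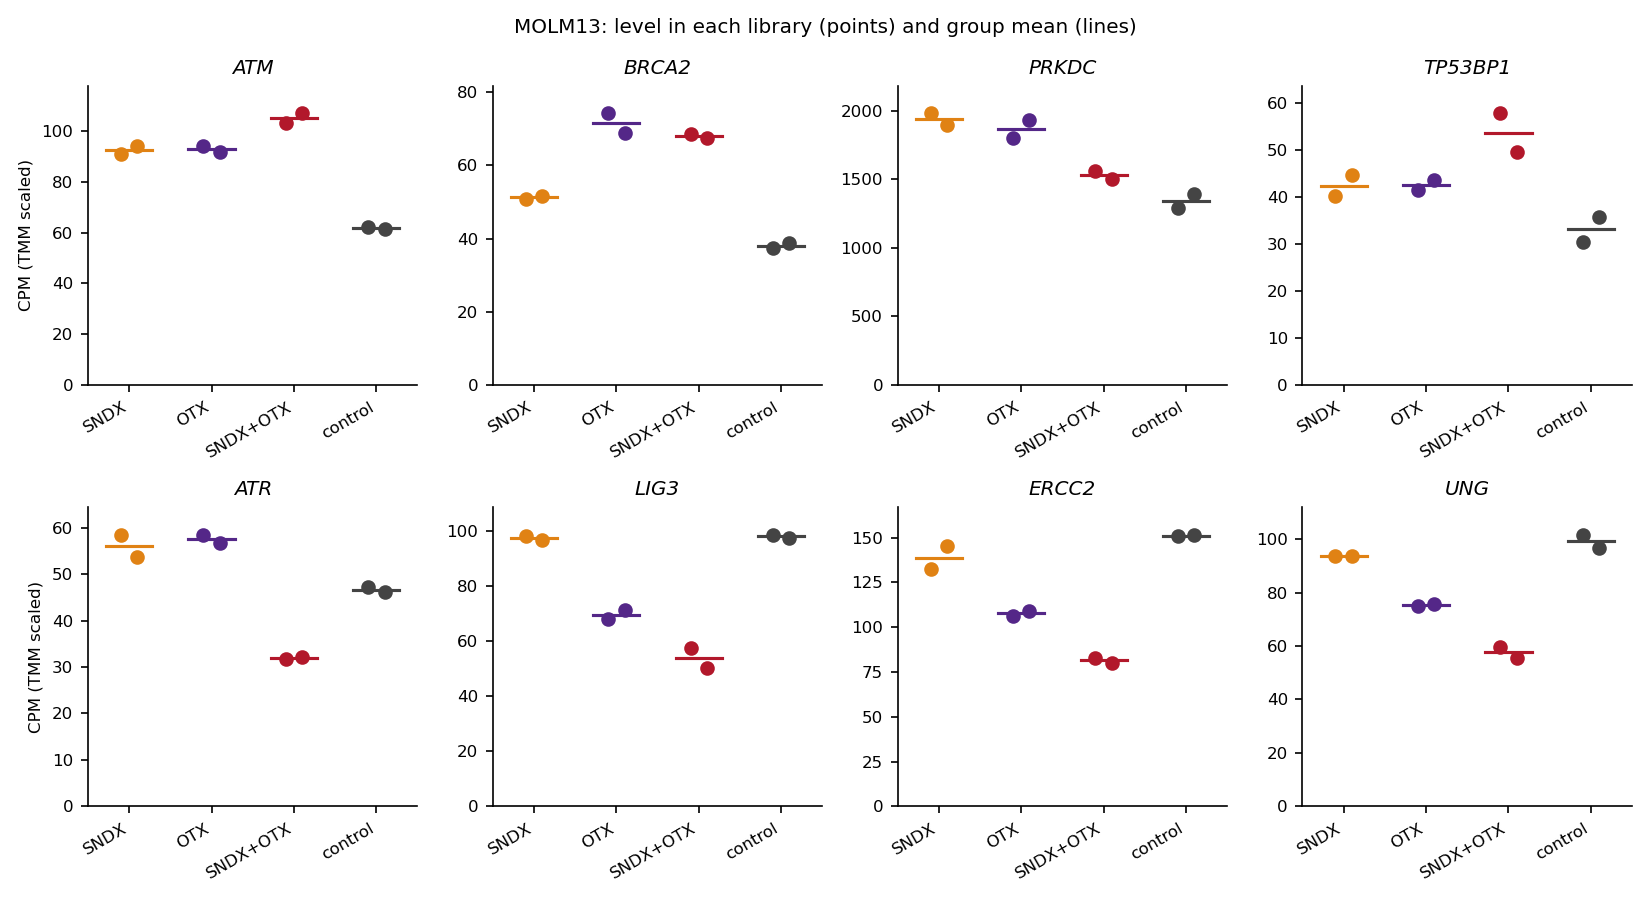
TMM-scaled CPM (vertical axis, from 0) of 8 members in each MOLM13 library, by treatment with 2 libraries a group; points are libraries and lines are group means. ATM, BRCA2 and TP53BP1 lie above the control in every treated group, ATR lies above it with either agent and below it with both, and LIG3, ERCC2 and UNG are lowest with SNDX+OTX.

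SNDX+OTX called 18 members against control, more than either agent, with 8 higher and 10 lower. The members' shares were 22.9% and 28.6%, and over all genes 31.2% were called higher and 30.9% lower. The medians were −0.05 for the members and 0.02 for all genes. By role, 2 kinases and checkpoint factors rose and 1 fell. In homologous recombination 3 rose and 2 fell, and in end joining 1 rose and 3 fell. Fanconi genes split 1 and 1, base excision genes 1 and 2, and nucleotide excision 0 and 1, while MRN and mismatch repair had no call.

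ATM reached 103 and 107 CPM with SNDX+OTX, against 62.1 and 61.5 CPM in control cells, a change of 0.77 ± 0.05 (edgeR adjusted p = 4.4e-21). BRCA2 had 68.5 and 67.6 CPM, a change of 0.84 ± 0.06, and TP53BP1 had 57.9 and 49.6 CPM, a change of 0.69 ± 0.07. ATM, BRCA2 and TP53BP1 were the 3 members called higher in all 3 treated MOLM13 groups, which share the same control libraries. XRCC1, the scaffold of single-strand break repair, had 79.0 and 72.3 CPM, against 52.6 and 53.8 CPM in control cells. It rose by 0.51 ± 0.06, in the opposite direction to its partner ligase LIG3.

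FANCI, which forms with FANCD2 the clamp that marks interstrand crosslinks, had 142 and 146 CPM with SNDX+OTX, against 106 and 108 CPM in control cells, a rise of 0.42 ± 0.05. FANCD2 itself had 43.5 and 44.7 CPM, against 55.4 and 55.4 CPM in control cells, a change of −0.33 ± 0.06 at the fold limit. LIG4, the end-joining ligase (0.40 ± 0.10), BRCA1, a ubiquitin ligase of recombination (0.35 ± 0.05), and RAD52 (0.33 ± 0.11) also rose. The FANCD2 call was lost without scaling factors, with upper-quartile factors and without SNDX+OTX replicate 1. The calls of LIG4 (without SNDX+OTX replicate 2), BRCA1 (without SNDX+OTX replicate 1 or control replicate 2) and RAD52 (with DESeq2, or without control replicate 1 or SNDX replicate 2) were lost likewise.

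ERCC2 showed the greatest fall, with 82.9 and 80.0 CPM with SNDX+OTX, against 151 and 152 CPM in control cells (−0.89 ± 0.05, edgeR adjusted p = 3.3e-25). LIG3 had 57.6 and 50.4 CPM, against 98.6 and 97.6 CPM (−0.86 ± 0.06), and UNG had 59.8 and 55.6 CPM, against 102 and 96.9 CPM (−0.78 ± 0.05). For all 3 genes the combination libraries lay below those of OTX alone, which lay below the controls. Over all genes tested 42.6% had both SNDX+OTX libraries below both controls, and 43.5% had both above. RAD51C, a homologous recombination factor, had 27.2 and 27.3 CPM, against 43.7 and 42.0 CPM in control cells, a change of −0.65 ± 0.07. Both Ku subunits fell, XRCC6 with 543 and 528 CPM, against 772 and 768 CPM in control cells (−0.52 ± 0.04), and XRCC5 with −0.45 ± 0.04. PALB2, which ties BRCA1 to BRCA2, fell by 0.48 and XRCC4 by 0.39 on the log2 scale.

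Like PMS2 (−0.28 with both) and XRCC2 (−0.05), but alone among the kinases, ATR changed upward with each agent and downward with both. It had 31.8 and 32.2 CPM with SNDX+OTX, 58.5 and 53.6 CPM with SNDX, 58.5 and 56.6 CPM with OTX, and 47.3 and 46.1 CPM in control cells. Its libraries with both agents lay below the controls, and those with either agent above them. The fall with both agents was −0.55 ± 0.07 (edgeR adjusted p = 6.1e-11), while the changes of 0.26 with SNDX and 0.30 with OTX stayed under the fold limit. Against the single agents ATR was lower by −0.81 ± 0.06 (SNDX) and −0.85 ± 0.07 (OTX).

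Set directly against SNDX alone, SNDX+OTX raised 4 members and lowered 12, beside 27.9% higher and 29.0% lower over all genes, with a median of −0.15 for the members and −0.02 for all genes. LIG3 (−0.85 ± 0.06), ATR and ERCC2 (−0.77 ± 0.05) had the largest falls, and XRCC1 (0.53 ± 0.06) the largest rise. Without scaling factors the counts were 5 and 9. Against OTX alone 1 member was higher and 8 were lower, beside 18.4% and 16.5% over all genes, with medians of −0.10 and 0.01. TP53BP1 rose by 0.34 ± 0.07 over OTX, a call lost without OTX replicate 1 or SNDX+OTX replicate 1. PARP1, the main poly(ADP-ribose) polymerase, had 402 and 397 CPM with both agents, against 524 and 531 CPM with OTX alone, a change of −0.40 ± 0.04, and ERCC1, the partner of the XPF nuclease, fell by 0.33.

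The interaction term asks whether the log2 fold change with both agents differs from the sum of those with each agent. No member was called above the sum and 11 were called below it, 31.4% of the members, and over all genes 11.5% were called above and 12.7% below. Counting all members, 27 of 35 lay below the sum and 8 above it, with a median of −0.22. Over all 14360 genes tested 7351 lay below and 7009 above, with a median of −0.01. Of the 14 long members 8 were called below the sum, and of the 21 short ones 3 were. Over all genes of known coding length the shares called below were 17.7% of the long and 13.2% of the short. ATR was farthest, at −0.55 with both agents where the sum of the single agents was 0.57, an interaction of −1.11 ± 0.09 (edgeR adjusted p = 2e-16). PRKDC had 1559 and 1502 CPM with SNDX+OTX, below both single agents and above the control. Its change of 0.19 ± 0.04 was set against a sum of 1.00, an interaction of −0.81 ± 0.05 (edgeR adjusted p = 6.8e-20).

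PMS2, a mismatch repair protein, had an interaction of −0.64 ± 0.13, with 13.8 and 14.8 CPM with both agents, 20.1 and 21.2 CPM with SNDX, 18.2 and 19.2 CPM with OTX and 18.2 and 16.6 CPM in control cells. BRCA2 was at −0.50 ± 0.08, since its level with both agents was no higher than with OTX alone. XRCC2, a homologous recombination factor (−0.47 ± 0.11), ATM (−0.40 ± 0.07) and PARP1 (−0.40 ± 0.05) followed, and FANCD2, LIG3, PALB2 and RAD51C lay between −0.36 and −0.33. The FANCD2 and PALB2 calls were lost without OTX replicate 2, that of LIG3 without SNDX+OTX replicate 2, and that of RAD51C without control replicate 2, SNDX replicate 2 or OTX replicate 1. TP53BP1 had an interaction of −0.02 ± 0.10. With all 18 libraries in a single fit, which takes in the MV4-11 libraries, 5 members were called, and with offsets that take out coding length 6 were. In the 18-library fit the median interaction was −0.15 for the members and 0.03 for all genes. Why fewer members were called was not tested.

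**Figure D3:**
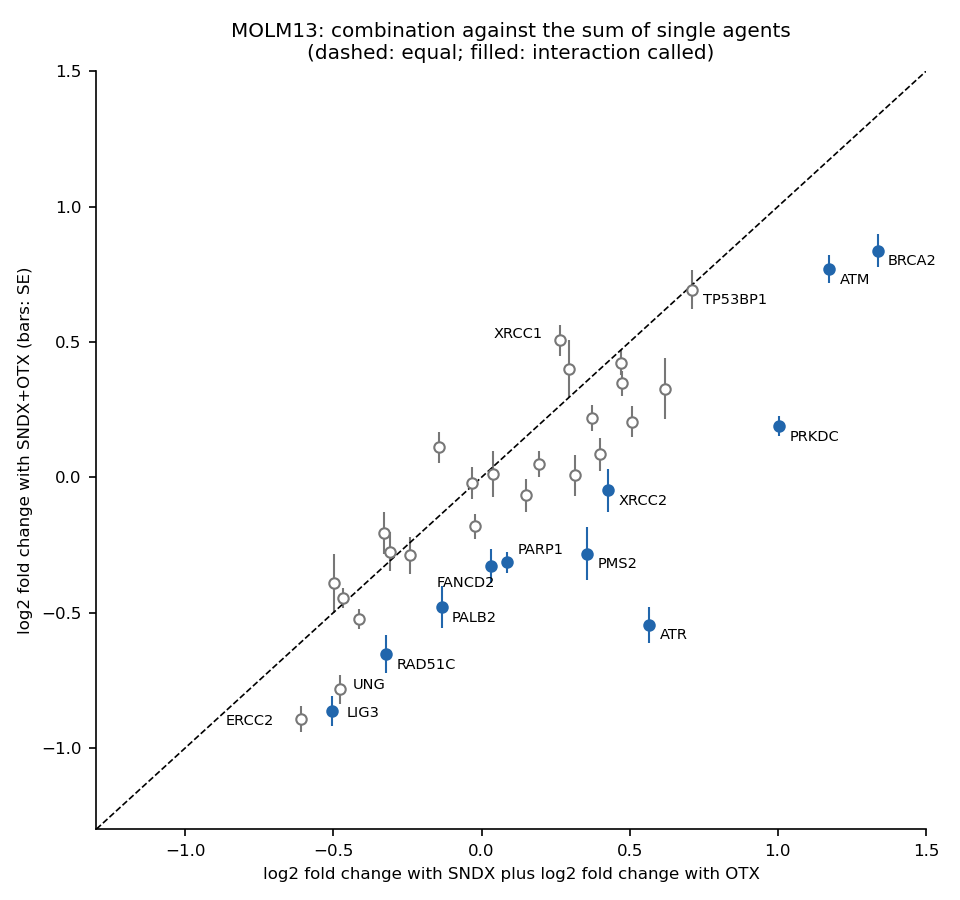
Log2 fold change with SNDX+OTX (vertical axis, bars are the SE) against the sum of the log2 fold changes with SNDX and with OTX (horizontal axis) for the 35 members in MOLM13; the dashed line marks equality and filled points had a called interaction. The filled points all lie below the line, ATR (0.57 and −0.55) and PRKDC (1.00 and 0.19) the farthest.

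A comparison of the change with coding length was planned. It was made for the members, whose risen genes are mostly long, and for all genes of known coding length. With SNDX the long members had a median log2 fold change of 0.20 and the short ones −0.07, a difference of 0.28. Over all genes the same difference was 0.19. Of the 14 long members 5 rose and none fell, and of the 21 short ones 1 rose and 1 fell. Over all genes 17.5% of the long and 6.82% of the short were called higher. With OTX the difference was 0.22 for the members and 0.31 for all genes, and with SNDX+OTX 0.38 and 0.43. Of the 14 long members 4 were called higher with OTX and 5 with SNDX+OTX. Over all long genes 43.5% and 51.5% were, larger shares than those of the long members.

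The relation went stepwise with length over all genes in MOLM13. Genes of 5 kb or more had medians of 0.27 with SNDX, 0.44 with OTX and 0.56 with SNDX+OTX, and genes below 1 kb had −0.10, −0.18 and −0.26. Spearman's rho between coding length and change was 0.68 over the 35 members and 0.33 over all genes with SNDX, 0.49 and 0.24 with OTX, and 0.39 and 0.24 with SNDX+OTX. These are descriptions across genes of the same libraries, and genes are not independent replicates. The 6 members of 5 kb or more were ATM, ATR, BRCA1, BRCA2, PRKDC and TP53BP1, with medians of 0.39 with SNDX, 0.42 with OTX and 0.52 with SNDX+OTX. The first was above that of all genes of this length and the other two were below it.

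The long-minus-short difference was also taken within each library, relative to the mean of the line. Over all genes it was 0.21 and 0.18 with SNDX+OTX, 0.06 and 0.09 with OTX, −0.04 and −0.06 with SNDX, and −0.25 and −0.19 in control cells. No treated library overlapped the controls. The share of mitochondrial counts moved in a similar order, with 5.74% and 6.01% for SNDX+OTX, 5.60% and 5.56% for OTX, 4.98% and 5.50% for SNDX, and 4.36% and 4.83% in control cells. Its part in the result was not tested.

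When the length trend over all genes was taken out of each library with offsets, the members' calls changed to 1 higher and 1 lower with SNDX, 2 and 7 with OTX, and 2 and 13 with SNDX+OTX. Against SNDX alone they became 1 and 14, and against OTX alone 0 and 8. ATM was then at 0.24 ± 0.05 with SNDX, 0.07 with OTX and 0.13 with SNDX+OTX, under the fold limit in all 3. PRKDC was at 0.10, −0.14 and −0.56, the last of these called lower. TP53BP1 with OTX (−0.02) and BRCA1 with SNDX+OTX (−0.12) also changed sign. BRCA2 with OTX kept a call at 0.36 ± 0.06. The members that fell with OTX or SNDX+OTX kept their calls, except UNG with OTX and XRCC4 with SNDX+OTX. ERCC2 was at −0.61 (OTX) and −1.04 (SNDX+OTX) and LIG3 at −0.68 and −1.10. ATR with SNDX+OTX was at −1.14. The offsets removed the difference between long and short members, which became 0.05, −0.05 and −0.05.

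**Figure D4:**
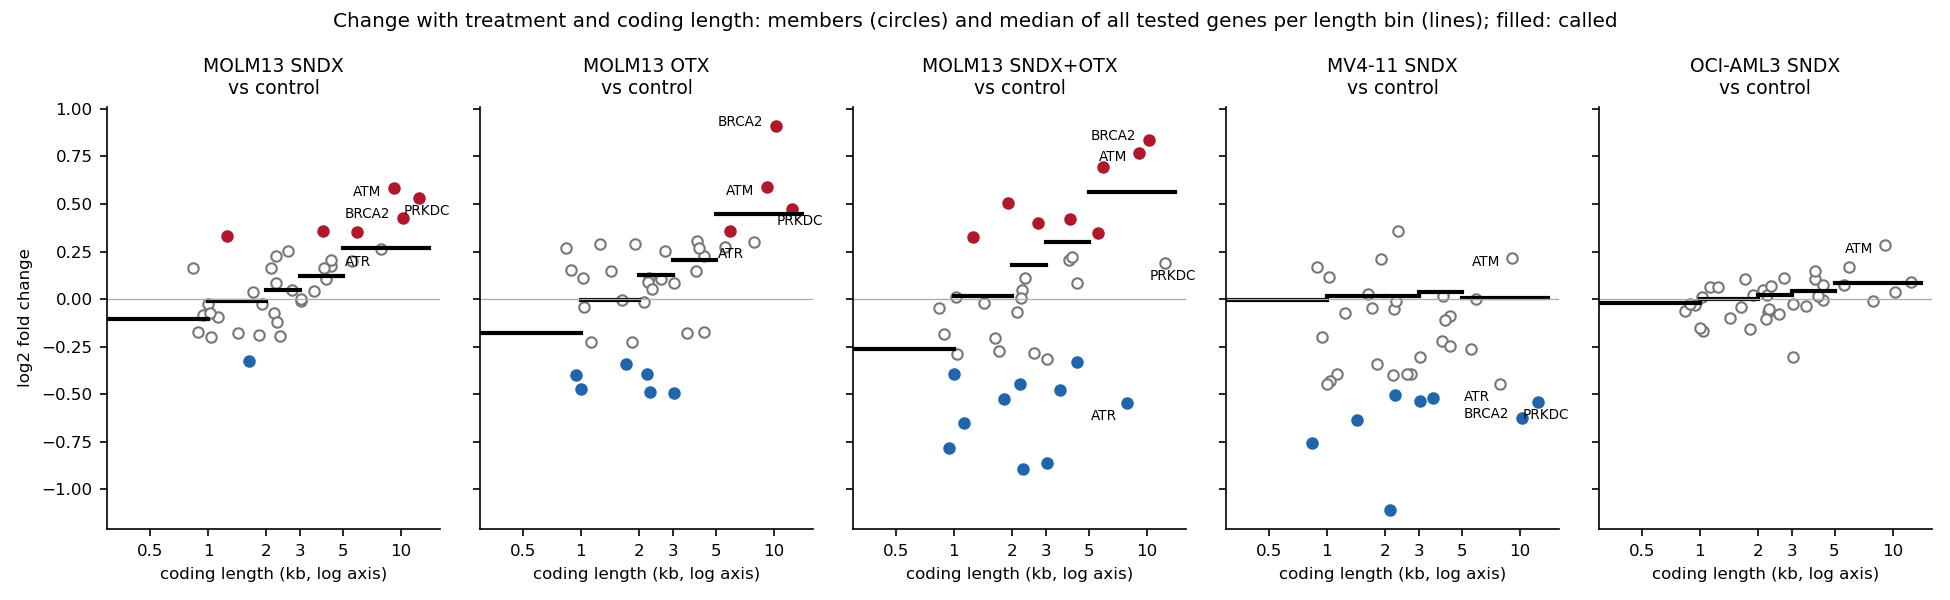
Log2 fold change (vertical axis) of the 35 members (circles, filled where called) against coding length in kb (log axis) in 5 comparisons; horizontal lines give the median of all tested genes in 5 length bins. In MOLM13 the lines climb to 0.27, 0.44 and 0.56 for genes of 5 kb or more, in MV4-11 and OCI-AML3 they reach 0.01 and 0.08.

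In MV4-11 cells, where SNDX was given at 1000 nM, 8 members fell and none rose. This was 22.9% of the members, and over all 15486 genes tested 9.34% were called lower and 11.4% higher. The members' median was −0.26, and that of all genes 0.00. The fallen members came from 5 roles, with MRE11 and NBN of the MRN complex, XRCC2, BRCA2 and PALB2 of homologous recombination, CHEK1, PRKDC and LIG3. The line's libraries varied widely, and the calls rest on them: 4 members were called without control replicate 1, 3 without control replicate 2, 2 without SNDX replicate 1 and 10 without SNDX replicate 2. MRE11 was the only one called under every alternative run for this comparison.

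MRE11, the nuclease that starts break resection, had 46.0 and 55.5 CPM with SNDX, against 111 and 108 CPM in MV4-11 control cells. Both treated libraries lay far below both controls. The change was −1.11 ± 0.16 (edgeR adjusted p = 0.00011). NBN, which links the complex to ATM, had 104 and 131 CPM, against 171 and 162 CPM in control cells (−0.50 ± 0.16), while RAD50 overlapped between the groups, with 97.0 and 120.4 CPM with SNDX and 138 and 115 CPM in control cells.

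XRCC2 had 8.57 and 10.6 CPM with SNDX, against 16.6 and 15.9 CPM in control cells (−0.75 ± 0.19, edgeR adjusted p = 0.0093). CHEK1, the checkpoint kinase downstream of ATR, had 31.6 and 34.4 CPM, against 54.3 and 48.0 CPM in control cells (−0.63 ± 0.16). BRCA2 had 31.0 and 44 CPM, against 52.7 and 63.0 CPM (−0.63 ± 0.18). In all 3 genes both treated libraries lay below both controls, though for BRCA2 the replicates of each group stood well apart. PRKDC (−0.54 ± 0.19, edgeR adjusted p = 0.048), LIG3 (−0.53 ± 0.15) and PALB2 (−0.52 ± 0.16) completed the calls. ATM was not called, with 72.6 and 112 CPM with SNDX and 69.3 and 89.2 CPM in control cells (0.22 ± 0.19), nor was TP53BP1 (0.00 ± 0.16).

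**Figure D5:**
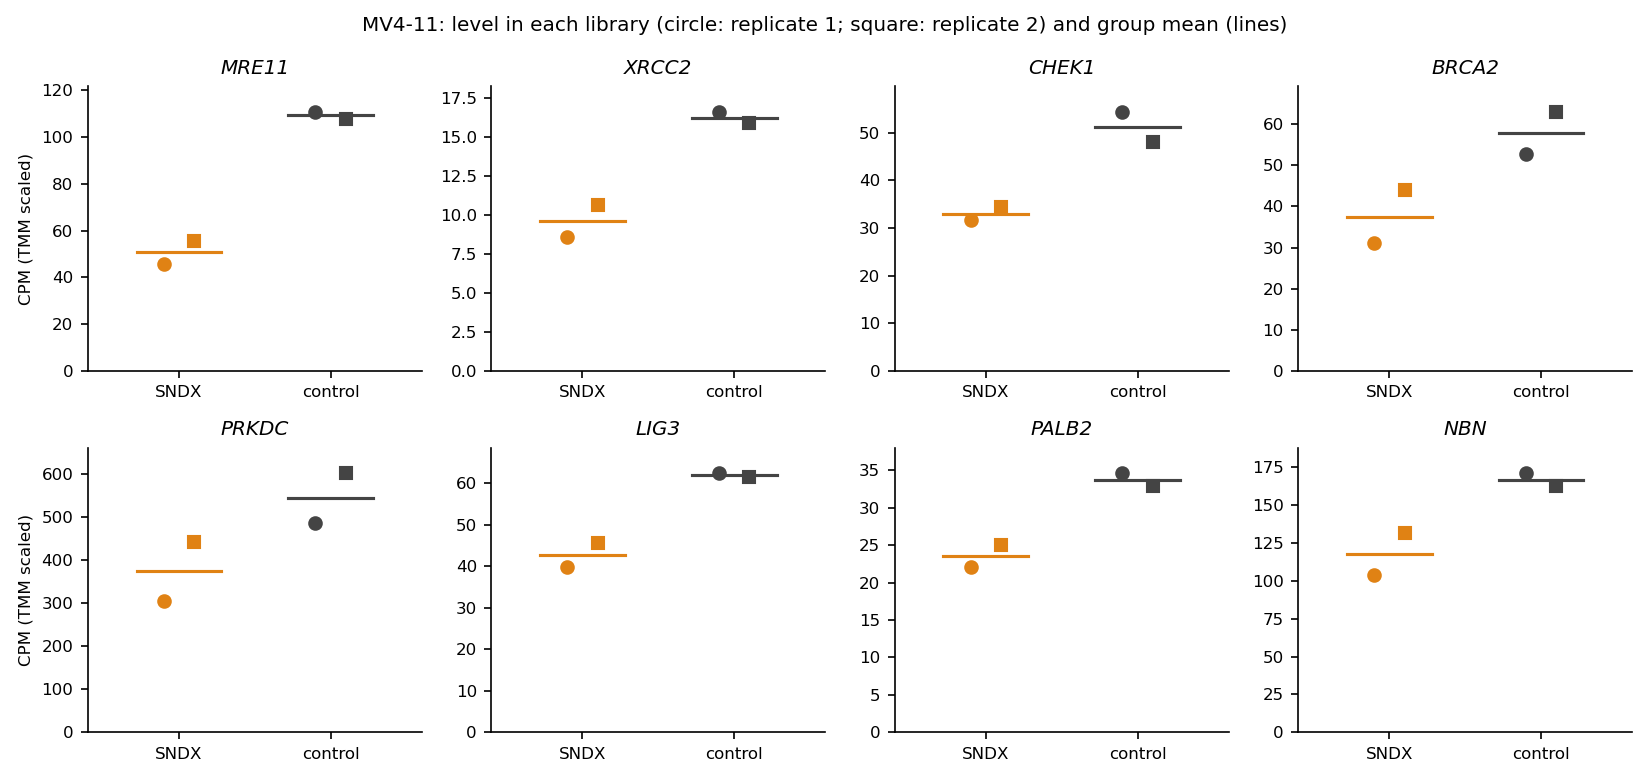
TMM-scaled CPM (vertical axis, from 0) of the 8 members called lower in MV4-11, with SNDX and in control cells; points are libraries (circle for replicate 1, square for replicate 2) and lines are group means. In each panel both SNDX libraries lie below both controls, MRE11 with 46.0 and 55.5 CPM against 111 and 108 CPM.

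Among all 35 members, 20 had both MV4-11 SNDX libraries below both controls, 1 (ERCC3, a TFIIH helicase) had both above, and 14 overlapped. These are 57.1% and 2.86% of the members, and over all genes tested 29.5% had both below and 31.3% both above. Without scaling factors only MRE11, XRCC2 and CHEK1 were called. The difference between long and short members in this line was 0.09, and 0.02 over all genes. It changed sign to −0.1055 without SNDX replicate 2 and to −0.11 with a limit of 4500 coding bases. Genes of 5 kb or more had a median of 0.01. Of 30 S phase genes 7 fell and none rose (23.3% lower), with sums of 2687 to 2865 CPM with SNDX and 3059 to 3218 CPM in control cells. Their part in the members' fall was not tested.

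In OCI-AML3 cells no member was called with SNDX at 500 nM, although over all 16611 genes tested 8.58% were called higher and 4.53% lower. DESeq2 and limma-voom also called 0 members. An unadjusted edgeR p below 0.05 was reached by 15 members and by 7665 of all genes tested. The median was 0.01 for the members and 0.00 for all genes. With no fold limit 4 members were higher (ATM, TP53BP1, FANCI, PARP2) and 6 lower (LIG3, XRCC6, XRCC5, XRCC3, XRCC4, CHEK1), but 11 and 3 without scaling factors and 10 and 4 with limma-voom after quantile normalization. Over all genes tested 3134 were higher and 3204 lower in the edgeR test with no fold limit.

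LIG3 and ATM came closest to the fold limit, which is 0.32 on the log2 scale. LIG3 had 56.3, 59.3 and 57.4 CPM with SNDX, against 68.7, 73.5 and 71.4 CPM in OCI-AML3 control cells, with no overlap (−0.30 ± 0.03, edgeR adjusted p = 1.3e-05). It was called when control replicate 1 was left out. ATM had 100.4, 112 and 110.2 CPM, against 77.6, 91.6 and 94.7 CPM in control cells, also with no overlap (0.29 ± 0.06, edgeR adjusted p = 0.0022). ATM was called without scaling factors and when control replicate 3 or SNDX replicate 1 was left out. Over all genes tested 24.2% had every SNDX library above every control, and 24.5% had every SNDX library below. PRKDC overlapped, with 707, 838 and 842 CPM with SNDX and 643, 827 and 777 CPM in control cells (0.09 ± 0.08).

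Whether the SNDX response of OCI-AML3 differed from that of MOLM13, at the same dose, time and medium, was tested in a fit of all 18 libraries. No member was called higher or lower, beside 2.60% and 1.49% of the 17597 genes tested. An unadjusted edgeR p below 0.05 was reached by 7 members and by 2859 of all genes tested. DESeq2 called 0, limma-voom called 1, LIG3, and the fit with no filter on low counts called 2. A fit with a block for the replicate number called 2, BRCA2 and PRKDC. The differences were −0.41 ± 0.17 for PRKDC, −0.36 ± 0.15 for BRCA2, −0.27 ± 0.18 for ATM and −0.27 ± 0.09 for LIG3. In a fit of the 14 MOLM13 and OCI-AML3 libraries, chosen after seeing the data because MV4-11 widens the spread, PRKDC (−0.43 ± 0.10, edgeR adjusted p = 0.0037) and BRCA2 (−0.38 ± 0.09, edgeR adjusted p = 0.0041) were called. In fits without MV4-11 SNDX replicate 1 or without replicate 2, BRCA2 alone was called. The median difference over the members was −0.06, beside 0.01 over all genes.

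Control cells of the 3 lines were also compared with each other. To compare levels between genes, CPM were divided by coding length. On this scale the Ku subunits stood first in each line. XRCC6 had 311 ± 19 CPM per kb in MV4-11, 416 ± 3.7 in OCI-AML3 and 449 ± 0.57 in MOLM13 control cells (SD, n = 2, 3 and 2). XRCC5 had 290 ± 15 CPM per kb in MV4-11, 359 ± 3.5 in OCI-AML3 and 321 ± 4.1 in MOLM13. Their partner PRKDC had 43.4 CPM per kb in MV4-11, 57.0 ± 7.3 in OCI-AML3 and 116 ± 7.0 in MOLM13. ATR was the lowest member in MV4-11 (4.51 CPM per kb), and BRCA2 was lowest in OCI-AML3 (5.18 ± 0.35) and MOLM13 (3.96 ± 0.14). Of the 34 pairs of neighbours in this order, the libraries overlapped in 20 in MV4-11, 15 in OCI-AML3 and 12 in MOLM13, so that many ranks are not distinct.

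Control OCI-AML3 cells, set against control MOLM13 cells, had 8 members higher and 7 lower, beside 33.7% and 30.5% of all genes, with medians of −0.05 for the members and 0.05 for all genes. ERCC1 (−1.36 ± 0.07), ERCC2 (−1.28 ± 0.05) and XRCC1 (−1.06 ± 0.09), which all lie on chromosome 19, were the lowest. Whether their position or their roles had a part was not tested. ERCC3, the other nucleotide excision member, was at −0.10 and not called. The 6 base excision and single-strand break members had a median of −0.11, with 2 called lower. PRKDC was lower by −1.02 ± 0.12, and XRCC3, a homologous recombination factor, by −0.97 ± 0.08. TP53BP1 (0.82 ± 0.09), XRCC2 (0.81 ± 0.07) and RAD50 (0.65 ± 0.09) were the highest. Without scaling factors, which moved the median of all genes by 0.20, the counts were 15 and 7, and with length offsets 6 and 10.

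Control MV4-11 cells, set against control MOLM13 cells, had 6 members higher and 18 lower, beside 34.2% and 29.3% of all genes. The members' median was −0.37, and that of all genes 0.06. PRKDC (−1.41 ± 0.14), the recombination motor RAD54L (−1.20 ± 0.10) and FANCI (−1.09 ± 0.06) were the lowest, and LIG4 (1.03 ± 0.11), MRE11 (1.02 ± 0.07) and RAD50 (1.00 ± 0.10) the highest. In the same cells 29 of 30 S phase genes were lower than in MOLM13. Over all 17597 genes tested 8202 had a log2 fold change below 0, and 29.3% were called lower. The part of the S phase genes in the members' levels was not tested. Against control OCI-AML3 cells, control MV4-11 cells had 7 members higher and 15 lower, beside 34.3% and 33.1% of all genes. The medians were −0.30 and 0.00, with XRCC2 at −1.53 ± 0.08 and ERCC1 at 1.37 ± 0.07 as the ends. Line and medium cannot be told apart in these comparisons with MV4-11, and the OCI-AML3 libraries were deeper than those of the other lines.

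A further 106 repair genes outside the 35 were examined as a list, of which 102 to 104 were tested in a line. In MOLM13, 10 rose and 3 fell with SNDX, 28 and 16 with OTX, and 27 and 27 with SNDX+OTX. The shares of those tested were 9.8% and 2.9% with SNDX, 27.5% and 15.7% with OTX and 26.5% and 26.5% with SNDX+OTX, beside 8.06% and 5.24%, 23.5% and 24.7%, and 31.2% and 30.9% of all genes. In MV4-11, 3 rose and 15 fell (2.9% and 14.6%, beside 11.4% and 9.34% of all genes). In OCI-AML3 none was called, and 43 had an unadjusted edgeR p below 0.05, as did 7665 of all 16611 genes tested. The median log2 fold change of the list was 0.01, 0.08 and 0.02 in the 3 MOLM13 comparisons, −0.16 in MV4-11 and 0.01 in OCI-AML3.

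NTHL1, a glycosylase of base excision repair that removes oxidized pyrimidines, fell in all 3 MOLM13 groups, by 0.37 with SNDX, 0.95 with OTX and 2.11 with SNDX+OTX on the log2 scale (SE 0.09 for the last). PARP3, a break-responsive polymerase, fell by 1.24 with OTX and 1.64 with SNDX+OTX. POLB, the gap-filling polymerase of base excision repair, rose by 0.54 with OTX and 0.82 with SNDX+OTX. POLB also rose in MV4-11, by 0.77 ± 0.17. ERCC6, the transcription-coupled repair factor, rose by 0.33, 0.74 and 1.54 ± 0.08 over the 3 MOLM13 groups, and UVSSA of the same pathway by 0.36, 0.84 and 0.78.

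In recombination, GEN1, a resolvase of Holliday junctions, rose in the 3 groups by 0.41, 0.91 and 0.88, and BRIP1, a helicase that binds BRCA1, by 0.40, 0.73 and 0.75. POLI, a polymerase that bypasses lesions, rose by 0.67, 0.58 and 0.85. BARD1, the partner of BRCA1, rose with OTX (0.51) and SNDX+OTX (0.53) in MOLM13, and in MV4-11 it fell with SNDX (−0.62 ± 0.20). CLSPN, the adaptor between ATR and CHEK1, rose with OTX (0.71) and SNDX+OTX (0.61) in MOLM13, and in MV4-11 it fell with SNDX (−0.59 ± 0.17). With SNDX alone in MOLM13, BARD1 was at 0.25 and CLSPN at −0.07, neither of them called. TIPIN, a fork protection factor, fell with OTX (−0.42), SNDX+OTX (−0.83) and in MV4-11 (−0.75 ± 0.18). UBE2T, which charges the Fanconi clamp with ubiquitin, fell with SNDX and SNDX+OTX in MOLM13 (−0.40 and −0.35) and in MV4-11 (−0.55 ± 0.18).

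Among the others named by the rule, APLF, a histone chaperone of end joining, rose with OTX (1.12 ± 0.39) and SNDX+OTX (2.00 ± 0.35), and POLL, an end-joining polymerase, fell with OTX (−0.79) and SNDX+OTX (−0.65) and rose in MV4-11 (0.54 ± 0.17). RMI1, a partner of the BLM helicase, rose with OTX in MOLM13 (0.38) and fell with SNDX in MV4-11 (−0.83 ± 0.17). With SNDX alone in MOLM13, POLL was at 0.05 and RMI1 at −0.07, neither of them called. ERCC4, the XPF nuclease, rose with SNDX (0.45 ± 0.12), and NEIL1, another glycosylase, rose with SNDX (0.44 ± 0.17) and fell with SNDX+OTX (−0.45 ± 0.19).

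The S phase, mitosis and p53 target programs were counted beside the members. Of 30 S phase genes, none rose and 1 fell with SNDX in MOLM13, 5 rose and 3 fell with OTX, and 5 rose and 8 fell with SNDX+OTX. Of 20 genes of mitosis, 3 rose and none fell with SNDX, 5 and 2 with OTX, and 7 and 6 with SNDX+OTX. Of 20 p53 target genes, which ATM and CHEK2 signalling can switch on, 3 rose and 1 fell with SNDX, 10 and 2 with OTX, and 10 and 3 with SNDX+OTX. In MV4-11, 5 p53 targets rose and 2 fell, and in OCI-AML3, 2 rose and none fell. With OTX the S phase shares of 16.7% higher and 10% lower were below those of all genes (23.5% and 24.7%), and with SNDX+OTX 16.7% and 26.7% were below 31.2% and 30.9%. The mitosis shares were 25% and 10% with OTX and 35% and 30% with SNDX+OTX. The p53 targets had 50% higher with OTX and with SNDX+OTX, and 10% and 15% lower. With SNDX in MOLM13 the shares higher were 0% of S phase genes and 15% of each other list, beside 8.06% of all genes. In MV4-11, 25% of the p53 targets were higher and 10% lower, beside 11.4% and 9.34%, and in OCI-AML3 10% were higher, beside 8.58%. Their part in the members' changes was not tested.

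By RefSeq coordinates 17 of the 35 members overlap another protein-coding gene, among them ATM with C11orf65, BRCA2 with ZAR1L, LIG3 with RFFL, ERCC2 with KLC3, TP53BP1 with TUBGCP4 and MRE11 with ANKRD49. Whether the counting used strand is not stated in the sources, so reads of such pairs cannot be told apart. PMS2, CHEK2, XRCC6, FANCD2 and BRCA1 have close copies elsewhere in the genome, and their counts carry that uncertainty. Of the 35 members 9 were called in none of the 5 comparisons with control: OGG1, the glycosylase for oxidized guanine, MSH6, a mismatch sensor, FANCA of the Fanconi core complex, ERCC1, ERCC3, PARP1, PMS2, RAD54L and XRCC3.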

How the data were processed

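Bulk RNA-seq of 18 libraries in 8 groups was used as a table of raw counts per Ensembl gene. The deposited counts were made by the authors from reads for which the submitters' processing notes name STAR and hg38, with no versions. The study's methods describe another aligner, and no source used here names the counting program, the gene annotation or the strand setting. The table held 0 spike-in rows, and 2434 identifiers without a symbol held 0.156% of the counts.

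Counts were fitted per line with edgeR 4.0.16 in R 4.3.3 (TMM factors, filterByExpr, group means, glmQLFit and glmQLFTest), and across lines with all 18 libraries. P-values were adjusted over all genes tested (Benjamini-Hochberg), and a gene was called where that p was under 0.05 and the log2 fold change 0.32 or more in size. The study's own analysis used quantile normalization and limma. Coding lengths, without the stop codon, came from the Ensembl canonical transcripts of GENCODE release 44 mapped to GRCh37 (35 of the 35 members). The split at 3000 bases stands for the planned split at 1000 residues, since no protein table was used. Gene coordinates and promoters came from RefSeq GRCh38.p14, with promoters for 31 members. Library totals ran from 19320216 to 59711884, and the limits given for 3 counts cover counting error only. The scripts were tested on simulated data.

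Alternatives were no scaling factors, upper-quartile factors, no filter, no fold limit, DESeq2 1.42.0, limma 3.58.1 with voom after quantile normalization, offsets that take out the length trend, a replicate block, other length splits, each library left out in turn and all libraries in 1 fit. Any of the 35 members could be named. Of the other repair genes, those called in at least 3 of the 5 comparisons with control, or among the 3 largest called changes of such a comparison, were named, except for a result that is not reported here. The members and lists were chosen with earlier results of these data known.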

Additional observations from a re-analysis of the deposited data

Results flagged for a closer look

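For 10 of the 35 members, both MOLM13 SNDX libraries lay on 1 side of their controls and both MV4-11 SNDX libraries on the other side. These are 28.6% of the members, beside 12.6% of the 13422 genes tested in both lines. The doses (1000 nM in MV4-11, 500 nM in MOLM13) and the media differed, and the difference between the lines was not tested. The MV4-11 log2 fold change minus the MOLM13 one was −1.27 for MRE11, −1.07 for PRKDC, −1.05 for BRCA2, −0.92 for XRCC2, −0.71 for ATR, −0.64 for PMS2, −0.56 for PALB2, −0.46 for BRCA1, −0.46 for FANCD2 and 0.55 for ERCC3. Of these, BRCA2 and PRKDC were called in both lines, lower with SNDX in MV4-11 and higher with SNDX in MOLM13. MRE11, XRCC2 and PALB2 were called in MV4-11 only, and the other 5 in neither line. Without scaling factors BRCA2 and PRKDC were not called in MV4-11, and PRKDC was not with limma-voom after quantile normalization. In MOLM13 the PRKDC call with SNDX was lost with length offsets. The 2 MV4-11 libraries of a group differed more than those of the other lines, and leaving out MV4-11 control replicate 2 or SNDX replicate 1 ended the MV4-11 calls of BRCA2 and PRKDC.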

How the results depend on the processing

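Over 140 calls of members in 12 comparisons, 2622 of 2772 values under the alternatives kept direction and call, 147 lost the call and 3 changed sign, all with length offsets (TP53BP1 −0.023 and PRKDC −0.14 with OTX, BRCA1 −0.12 with SNDX+OTX). The cause of the losses was not tested. With no fold limit the calls numbered 21 for SNDX, 28 for OTX, 28 for SNDX+OTX against SNDX, 21 against OTX, 19 for the interaction, 10 in OCI-AML3, 1 for the difference of the responses and 26 for control OCI-AML3 against control MOLM13. Length offsets gave 2 for SNDX, 6 for the interaction, 15 in MV4-11 and 1 in OCI-AML3, and long minus short became 0.0487, −0.0469, −0.0533 and −0.0168 (SNDX, OTX, SNDX+OTX, OCI-AML3). All 18 libraries in 1 fit gave 5 for the interaction and 18 in MV4-11, and no scaling factors gave 3 in MV4-11 and 1 in OCI-AML3. For the difference of the responses, no filter gave 2, limma-voom 1 and the 14 libraries chosen after seeing the data 2. A split at the median gene span gave long minus short of 0.21 (SNDX) and 0.14 (OTX), and a limit of 4500 bases 0.39, 0.33, 0.70 and −0.11 (SNDX, OTX, SNDX+OTX, MV4-11).

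Leaving out each library in turn gave 5 to 7 calls for SNDX, 8 to 13 for OTX, 17 to 20 for SNDX+OTX, 14 to 17 and 9 to 10 for SNDX+OTX against SNDX and OTX, 10 to 14 for the interaction, 2 to 10 in MV4-11, 0 to 1 in OCI-AML3, 0 to 1 for the difference of the responses, and 14 to 16, 23 to 25 and 21 to 25 between control lines. A lone library was then assumed to vary like the other groups. Long minus short ranged from 0.25 to 0.28, 0.17 to 0.27, 0.27 to 0.40, −0.1055 to 0.0923 and 0.03 to 0.13 (SNDX, OTX, SNDX+OTX, MV4-11, OCI-AML3).

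Replicate numbers gave no sign of pairing (correlations of same-numbered libraries from −0.04 to 0.10), and in OCI-AML3 not every library correlated best with its own number. A replicate block kept 140 of 140 calls. It gave 2 calls for the difference of the responses (BRCA2 and PRKDC) and 9 in MV4-11, and left the other counts within 1.5 times.

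Depth did not limit detection of the members, whose lowest count was 187. The spread between MV4-11 libraries limits what that line can show, and groups of 2 and 3 libraries limit the rest.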
